A study of Mus musculus with 21 samples.

Results

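Stum, Snap91 and Myocd are 3 mouse genes whose signal was low in the low-numbered pieces of the dissected presomitic mesoderm. Each rose most between pieces 4 and 5. They were selected on that step, out of 18193 genes with a probe set, of which 12141 passed the filter on low values; all 3 passed it, Stum and Myocd only through the pieces in which they were high. The presomitic mesoderm (PSM), the unsegmented tissue from which somites are cut off, came from wild-type CD-1 embryos (an outbred strain, no treatment) staged E8.5 in the labels, where the protocol has them at 9.0 days post-coitus. It was divided into 7 parts with 3 arrays each, 21 in all, labelled as biological replicates. The left and right PSM of 1 embryo and a further set from another embryo made up the triplicates, so some arrays share an embryo and p-values reflect array-to-array spread, which understates that among embryos. The labels do not say at which end part 1 lies. Positions are therefore part numbers.

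As background, Snap91 encodes AP180, an adaptor that gathers clathrin at the membrane when synaptic vesicles are taken back up, and it is best known from neurons. Myocd encodes myocardin, a coactivator that binds the serum response factor SRF at CArG boxes and switches on smooth muscle and cardiac genes. Stum is the mouse counterpart of the fly gene stumble, which is needed for mechanical sensing in proprioceptive neurons. None of these is a textbook gene of segmentation, in which Mesp2 and Ripply2 set the next segment boundary while the PSM regulator Tbx6 is cleared and somite genes such as Meox1 come on.

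The parts expressed genes of the labelled tissue, and blood genes were bright in them as well, as given below. Tbx6 had signals of 417 to 632 in part 4 and of 19.0 to 50.3 in part 7, and Meox1 went from 14.7 to 46.7 in part 1 to 2190 to 3240 in part 7. Signals are the authors' MAS5 values, a linear brightness per probe set; mean signals per array lay between 151 and 153.8, and no 2 arrays held identical values. The median over all values in the table was 13.3, and differences in signals under about that level carry little information. In pieces of tissue, fewer expressing cells and less RNA per cell cannot be told apart.

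The sequence before the start site is shown for the members that RefSeq's promoter table (GRCm38.p6) holds, Stum and Snap91. They are shown because these genes had their largest rise at the same step. Each run is 220 bases, from 250 to 31 bases before the start, and lies outside the annotated gene. Capitals mark E-boxes (CANNTG), the letters bound by basic helix-loop-helix factors such as those of the Mesp family. Stum lies at chr1:180483535-180483754 and Snap91 at chr9:86880739-86880958, both on the minus strand and printed 5′ to 3′.
Stum: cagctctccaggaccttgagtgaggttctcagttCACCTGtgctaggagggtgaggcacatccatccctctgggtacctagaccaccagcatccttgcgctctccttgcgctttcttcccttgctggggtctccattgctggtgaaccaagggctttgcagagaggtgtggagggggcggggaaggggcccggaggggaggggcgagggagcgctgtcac
Snap91: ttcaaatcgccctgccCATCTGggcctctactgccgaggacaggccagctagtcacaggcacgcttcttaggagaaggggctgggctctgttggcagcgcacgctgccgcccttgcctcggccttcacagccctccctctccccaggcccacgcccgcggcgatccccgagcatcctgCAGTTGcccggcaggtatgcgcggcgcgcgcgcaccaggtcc

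Stum had 1 E-box in this window and Snap91 had 2, and 62.1% of 32851 promoter windows of that length held at least 1. Searched on both strands, the T-box core AGGTGT stood once in Stum and in 10.7% of all windows, and not in Snap91. The RBPJ core TGGGAA of Notch signalling (19.4% of windows), the nuclear receptor half-site AGGTCA (12.5%) and the CArG box (1.3%) were in neither window. No searched motif overlapped another in these runs. The 2 windows differed in base composition: Snap91 had 19 CpG dinucleotides, more than 85.6% of windows, and Stum had 6, against a median of 5.

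Stum was close to background in parts 1 to 3 and had its highest mean in part 6. Its probe set 1440534_at gave 5.83, 0.549 and 4.62 in part 1, 1.2, 1.13 and 2.95 in part 2, and 0.921, 2.44 and 1.22 in part 3 (replicates 1, 2 and 3 in order). In part 4 it gave 24.1, 8.84 and 14.1, all above each of the 9 arrays before. In part 5 it reached 169, 147 and 198, in part 6 420, 415 and 482, and in part 7 405, 436 and 387. The arrays of parts 5 to 7 did not overlap those of parts 1 to 4, the lowest being 6.08 times the highest of the others. Such a separation, in Stum, Snap91 and Myocd alike, belongs to the pattern for which they were picked. How many of all genes separate in this way was not counted, and 6.72% were called higher over this split. On the log2(value + 16) scale the mean was 4.29 ± 0.21 (SD, n = 3) in part 1, 4.96 ± 0.35 in part 4, 7.54 ± 0.20 in part 5 and 8.83 ± 0.12 in part 6. Adding 16 keeps low values from dominating and understates their change.

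Snap91 was low but measurable before its step. Probe set 1416688_at gave 22, 36.7 and 48.3 in part 1, 27.7, 18.5 and 30 in part 2, 8.56, 22.3 and 16.5 in part 3, and 22.8, 13.8 and 17.6 in part 4. It then gave 186, 196 and 354 in part 5, 271, 338 and 444 in part 6, and 125, 284 and 170 in part 7. Of the 12 arrays of parts 1 to 4, 11 were at or above the table median, against 2 each for Stum and Myocd. The lowest high-part array, part 7 replicate 1, was 2.6 times the highest low-part array, part 1 replicate 3. Mean log2 levels ran from 5.66 ± 0.38 (SD, n = 3) in part 1 through 5.08 ± 0.19 in part 4 to 7.97 ± 0.49 in part 5 and 8.49 ± 0.34 in part 6.

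Myocd followed the same course with more spread at its end. Probe set 1425978_at gave 3.69, 0.529 and 11.3 in part 1, 6.35, 10.1 and 9.38 in part 2, 7.53, 8.49 and 11.8 in part 3, and 26, 10.8 and 19.1 in part 4. In part 5 it gave 345, 182 and 256, in part 6 422, 378 and 466, and in part 7 199, 523 and 145. Parts 5 to 7 again lay wholly above parts 1 to 4, by 5.56 times at the nearest arrays. Mean log2 levels were 4.37 ± 0.37 (SD, n = 3) in part 1, 5.09 ± 0.33 in part 4, 8.07 ± 0.43 in part 5, 8.77 ± 0.15 in part 6 and 8.05 ± 0.91 in part 7.

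**Figure D1:**
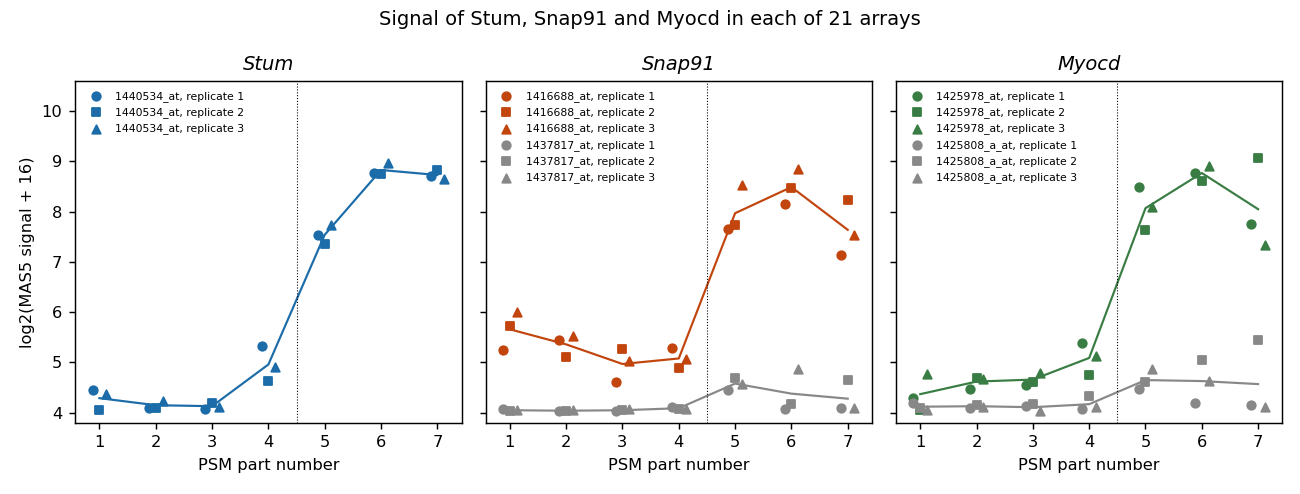
Log2(MAS5 signal + 16) of each probe set of Stum, Snap91 and Myocd in the 21 arrays against PSM part number, with symbols for replicate numbers and lines through part means; the dotted line marks the step from part 4 to part 5. In colour, the highest-mean probe sets stay near 4 to 6 in parts 1 to 4 and lie between 7.14 and 9.07 in parts 5 to 7; the grey second probe sets of Snap91 and Myocd stay at or below 5.45.

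The step itself chose these genes, so its size is given without a test. From part 4 to part 5 Myocd rose by 2.98 ± 0.32 log2 units (SE, 3 arrays each), or 7.9-fold, Snap91 by 2.89 ± 0.28, or 7.41-fold, and Stum by 2.58 ± 0.17, or 5.98-fold. Among all 12141 genes these ranked 2, 3 and 4 by size of rise at that step, after Cer1, a secreted antagonist of Nodal and BMP (3.57 ± 0.45). Meox2, a somite homeobox gene, followed with 2.56 ± 0.35. Limma called 32 genes higher in part 5, which is 0.264% of those tested, and 7 lower, or 0.0577%. With a block for the replicate number 105 genes were called in place of 39, and without replicate 1, 2 or 3 the count was 5, 12 or 16. Between same-numbered arrays (numbers 1, 2 and 3 in order) the Stum step was 2.2, 2.71 and 2.83. That of Snap91 was 2.38, 2.83 and 3.46, and that of Myocd 3.1, 2.89 and 2.96. The genes were picked from these same arrays, so a rise in each of them does not replicate the step.

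The genes differed in how much of their course lay in this step. It made up 82% of the range of part means in Snap91, 67.8% in Myocd and 55% in Stum. Stum went up by a further 1.29 ± 0.17 (SE) from part 5 to part 6 and had already gone up by 0.83 ± 0.17 from part 3 to part 4. For Snap91 these neighbouring differences were 0.52 ± 0.28 and 0.12 ± 0.28. For Myocd they were 0.70 ± 0.32 and 0.43 ± 0.32. The arrays of parts 5 and 6 did not overlap in Stum or in Myocd and overlapped in Snap91. Those of parts 3 and 4 overlapped in Snap91 and Myocd and did not in Stum. How many of all genes separate at these intervals was not counted. Whether the 3 genes differ in these steps was not tested. Over the 9 high arrays the mean signal was 60 times that of the 12 low arrays for Stum, 31.1 times for Myocd and 11.1 times for Snap91, ratios that depend on low values near background.

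**Figure D2:**
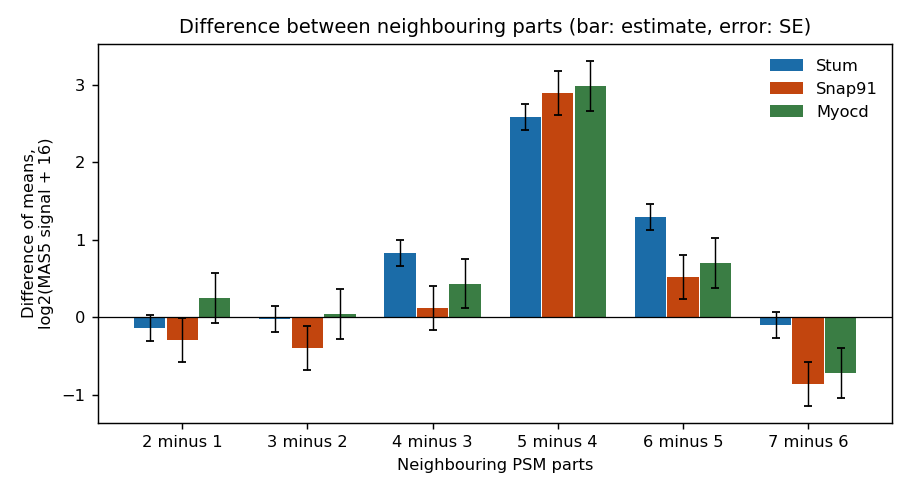
Difference between the means of neighbouring PSM parts in log2(MAS5 signal + 16), with the SE of the fit over 21 arrays, for Stum, Snap91 and Myocd. The tallest bars are those of part 5 minus part 4, from 2.58 to 2.98; Stum has a further rise of 1.29 into part 6, and the bars of Snap91 and Myocd for part 7 minus part 6 point down, at -0.86 and -0.72.

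A low course before the step belongs to the pattern for which the genes were picked, so the arrays before it are described without a test. From part 1 to part 3 the difference was -0.16 ± 0.17 (SE) for Stum, -0.69 ± 0.28 for Snap91 and 0.28 ± 0.32 for Myocd, 3 arrays each. At that interval limma called 1.48% of all genes as higher and 2.05% as lower, and nothing about the members is read from this. Stum and Myocd were mostly under the table median there, where a change could hardly be measured. For Snap91, 2 of the 3 signals of part 1 were above the highest of part 3 (22.3).

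The rule that picked the genes used values of all 7 parts, and Stum and Myocd passed the filter only through parts 5 to 7. The p-values from part 6 to part 7 are therefore no independent test. They stand beside the differences as a description. From part 6 to part 7 Stum differed by -0.10 ± 0.17 (SE), Snap91 by -0.86 ± 0.28 and Myocd by -0.72 ± 0.32 (limma adjusted p = 0.9997, 0.829 and 0.998, 3 arrays each). Limma called 0 genes of 12141 here in either direction, which is 0% higher and 0% lower, and 581 genes had an unadjusted p under 0.05, Snap91 (0.00697) and Myocd (0.0364) among them. With the fixed block for the replicate number, limma's adjusted p was 0.925 for Stum, 0.296 for Snap91 and 0.564 for Myocd. With that block 0 genes were called. The Myocd difference moved with single arrays of part 7. It was -0.57 ± 0.36 without replicate 1 and -0.36 ± 0.32 without replicate 3, both left out after seeing the data. Part 7 replicate 2 had 523 for Myocd, above every array of part 6, where replicates 1 and 3 had 199 and 145, below every array of part 6. For Snap91 it had 284 against 125 and 170. Without it Myocd fell by 1.23 ± 0.25 (adjusted p = 0.0343), Snap91 had a difference of -1.15 ± 0.29 (adjusted p = 0.0992), Stum had a difference of -0.14 ± 0.19 (adjusted p = 0.941), and 62 genes were called; this leave-out was chosen after seeing the data. With replicate 2 left out of all parts, the difference of Myocd was -1.31 ± 0.24 and was not called (adjusted p = 0.0978), and 14 genes were. The call for Myocd thus depends on which arrays are left out, and over its alternatives the adjusted p ran from 0.0343 to 1.

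Segmentation genes in the same array differed from its partners as well. Ripply2 had a signal of 918 in part 7 replicate 2 and of 13.5 and 7.01 in the others, Mesp2 54.1 against 9.88 and 9.92, Tbx6 50.3 against 19.7 and 19, and Cer1 791 against 206 and 318. Meox2 was lower, at 193 against 778 and 566. Over the 12141 genes the root mean square log2 difference of that array was 0.243 from the mean of the 3 arrays of part 6 and 0.38 from the mean of the other 2 of part 7. For part 7 replicate 1 these distances were 0.382 and 0.343, and for replicate 3 0.375 and 0.389. Arrays of part 6 could lie nearer to part 7 as well. Replicate 1 of part 6 was at 0.313 from part 7 and 0.346 from its own part, and replicate 3 at 0.347 and 0.384. Replicate 2 was at 0.322 and 0.307. A part's own mean held 2 arrays and the other mean 3, so the 2 distances are not on an equal footing. The part that the position of the cut has in the Myocd and Snap91 values of part 7 was not tested.

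**Figure D3:**
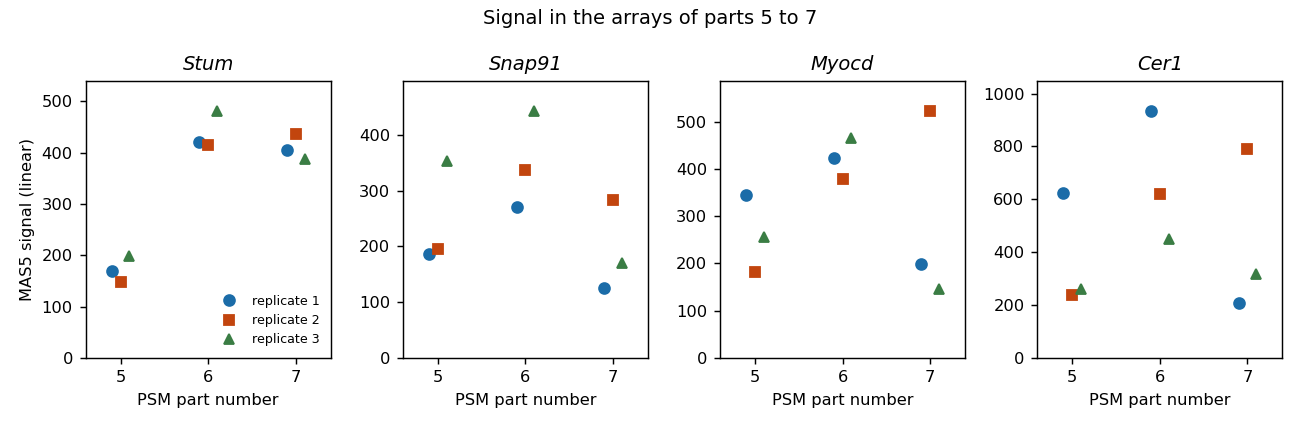
Linear MAS5 signal of Stum, Snap91, Myocd and Cer1 in each array of parts 5, 6 and 7, with a symbol and colour for each replicate number. Stum lies between 387 and 482 in all arrays of parts 6 and 7, while in part 7 Myocd and Cer1 are at 523 and 791 in replicate 2 and at or below 199 and 318 in the other 2 arrays.

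The second probe sets were much dimmer and bear on the onset only in raw signal. For Snap91, 1437817_at lay between 0.365 and 1.29 in parts 1 to 4, and gave 6.07, 9.85 and 7.96 in part 5, 0.873, 1.95 and 13.5 in part 6, and 1.03, 9.12 and 0.996 in part 7. For Myocd, 1425808_a_at lay between 0.428 and 4.08 in parts 1 to 4, and gave 6.15, 8.38 and 13.3 in part 5, 2.27, 17.2 and 8.99 in part 6, and 1.86, 27.8 and 1.24 in part 7. In both, the 3 arrays of part 5 were above all 12 arrays before them, and of parts 6 and 7 only some were. These signals stood mostly under the table median, which 1 of 9 high-part arrays reached for Snap91 and 2 of 9 for Myocd. On the log2(value + 16) scale their steps were 0.49 ± 0.18 (SE) and 0.48 ± 0.26. Stum has a single probe set, so no second measurement exists for it here.

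Across the 21 arrays, which share the parts and in some cases an embryo, the profiles of the 3 genes are compared as a description, since all were picked from these arrays for the same step. Pearson's r was 0.971 between Stum and Myocd, 0.951 between Snap91 and Myocd, and 0.934 between Stum and Snap91. By the same measure over all tested genes, the 5 nearest to Myocd were the FGF receptor gene Fgfr2 (0.988), Cer1 (0.984), Prmt8 (0.981), which encodes a brain-enriched arginine methyltransferase, Shroom3 (0.974), a driver of apical constriction, and Stum. The nearest to Stum were Cd36 (0.984), a fatty acid receptor gene, Pgm5 (0.974), whose product sits at cell junctions, Myocd, Fgfr2 (0.969) and Prmt8 (0.966). For Snap91 they were Prmt8 (0.952), Myocd, Gm2102 (0.943), Cer1 (0.941) and Fgfr2 (0.935). Snap91 thus had rank 25 for Stum and rank 7 for Myocd.

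The like genes had the following levels after the step. Cd36 was at a log2 mean of 6.89 ± 0.25 (SD, n = 3) in part 6 and 7.33 ± 0.28 in part 7 and Pgm5 was at 8.45 ± 0.34 and 8.58 ± 0.28. Prmt8 had 7.31 ± 0.29 and 6.60 ± 0.46, with the high array of part 7 again replicate 2 (123 against 68.3 and 62). Fgfr2 was already present in part 1 (5.88 ± 0.24) and went from 66 to 77.8 in part 4 to 233 to 383 in part 5. These values are descriptions, since likeness chose the genes, and 0 of them was called between parts 6 and 7.

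Segmentation genes had their own courses over these parts, and no test of the order of onsets was run. Meox1 was at 162 to 635 in part 3 and at 1370 to 2190 in part 4. Mesp2 had a mean log2 of 5.25 ± 0.71 (SD, n = 3) in part 3 and of 8.29 ± 1.99 in part 4, with signals of 85.9, 191 and 1440, and was at 39.1 to 88 in part 6, where Stum, Snap91 and Myocd had their highest means. Stum too was higher in part 4 than in part 3, as given above. Ripply2 gave 385, 22.6 and 287 in part 4 and 2170, 1250 and 304 in part 5. In part 4 the array with the highest Mesp2 signal, replicate 3, was not the one with the highest Stum, Snap91 and Myocd signals, which was replicate 1 for all 3. Replicate 1 also had the highest signals of that part for Ripply2, Cer1 (38), Meox1 (2190) and Meox2 (30.2), while Tbx6 was highest in replicate 2 (632). The member signals of part 4 did not exceed 26, not far above the table median of 13.3, and nothing is read from these single arrays. Tbx6 went down from 417 to 632 in part 4 to 181 to 267 in part 5 across the same step (-1.17 ± 0.25, SE; limma adjusted p = 0.0533), short of the threshold.

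**Figure D4:**
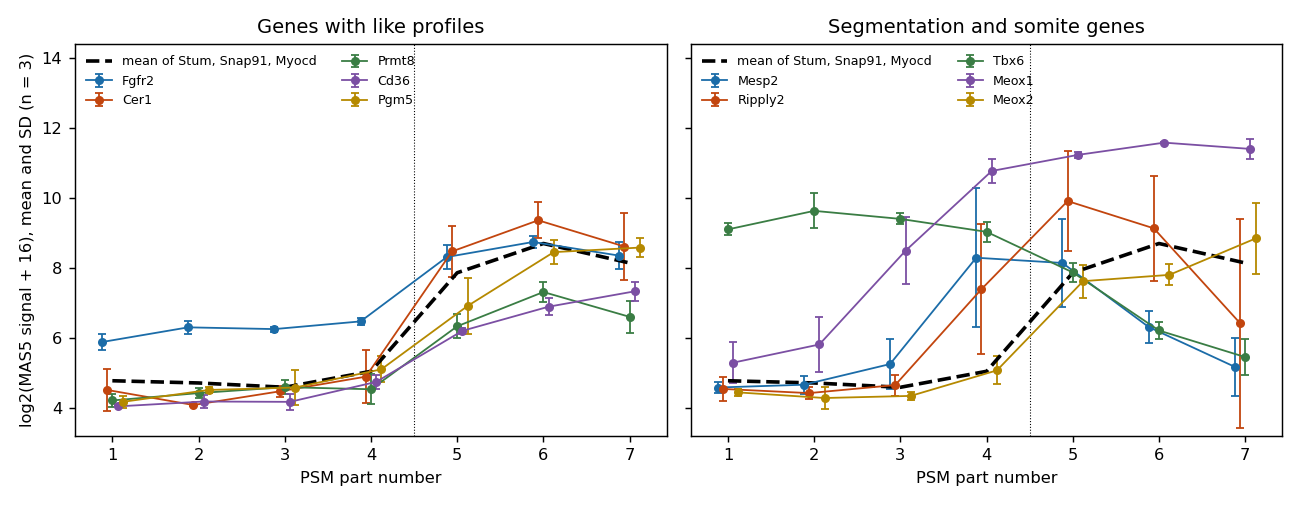
Mean and SD (n = 3) of log2(MAS5 signal + 16) by PSM part for genes with profiles like the members (left) and for segmentation and somite genes (right), with the mean of Stum, Snap91 and Myocd as a dashed line and the step from part 4 to 5 dotted. Cer1 and Fgfr2 turn up with the dashed line, Meox1 is already at 10.77 in part 4, and Mesp2 has its highest mean, 8.29, in part 4.

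Lists of genes tied to the known roles of Myocd, Snap91 and Stum are read against the shares of all genes called at the step, 0.264% higher and 0.0577% lower, at which lists of this size would hold hardly any call. Of 19 measured cofactors and smooth muscle targets of myocardin 0 were called from part 4 to part 5 by limma (1 lower at an unadjusted p under 0.05), with a list median of -0.17 against -0.02 over all genes. Of 11 cardiac genes 0 were called as well (1 lower unadjusted, median -0.11). Of 28 clathrin adaptor and endocytosis genes 0 were called (2 lower unadjusted, median -0.08), of 16 neuron and synaptic vesicle genes 0 (2 lower unadjusted, median 0.01), and of 11 mechanosensitive channel genes 0 (1 higher and 1 lower unadjusted, median -0.08). In these 5 lists the count was 0 under all alternatives run for that step, which is near the background and sets none of them apart. Srf, the partner of myocardin, had signals of 277 to 489 in parts 1 to 4 and 240 to 482 in parts 5 to 7, and the related coactivator gene Mrtfb 321 to 609 and 327 to 547.

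Lists of somite genes held members that rose at the step, at which 0.264% of all genes were called higher. The lists were chosen with earlier results of these data known, so these counts do not test a list. Of 22 segment boundary and somite genes 2 rose, Cer1 (limma adjusted p = 0.000318) and Meox2 (adjusted p = 0.000931), and 20 did not pass, with a median of 0.68; with the block 6 rose, and without replicate 1 only Cer1 did. Of 8 skeletal myogenic genes 1 rose, the dermomyotome regulator Pax3 (1.74 ± 0.35, adjusted p = 0.0265), a call that was lost when any single replicate number was left out (adjusted p = 0.0941 to 0.389). Of 20 posterior presomitic genes 0 were called (6 lower at an unadjusted p under 0.05, median -0.38). With the block 2 of them were called lower, and with a pseudocount of 64, the filter at percentile 75, array weights or without replicate 2, 1 was.

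**Figure D5:**
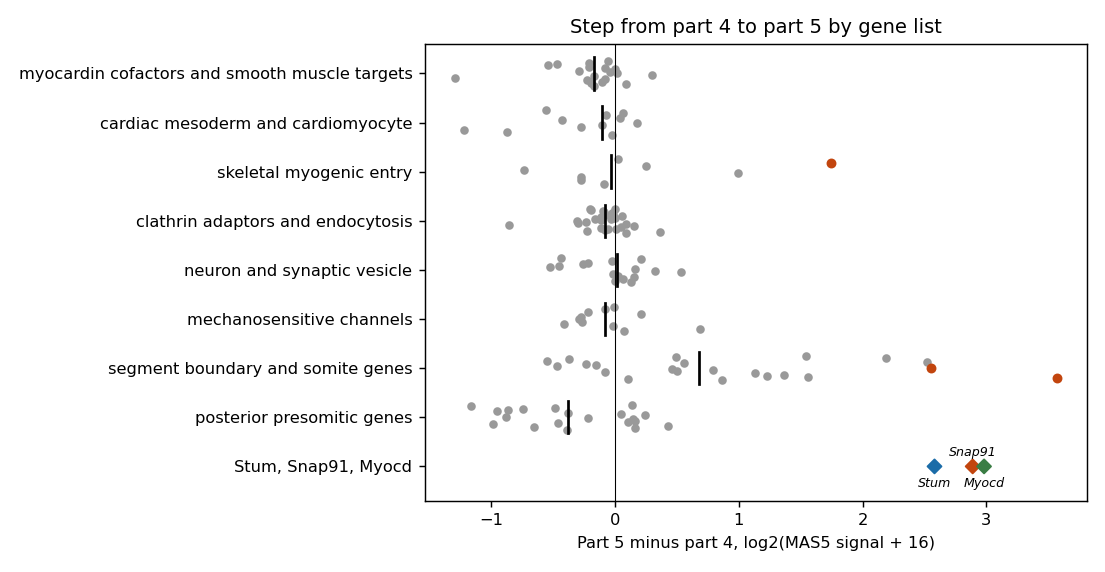
Part 5 minus part 4 in log2(MAS5 signal + 16) for each measured gene of 8 lists (grey points, red where limma's adjusted p was under 0.05), list medians as black bars, and the 3 members as diamonds. The members lie between 2.58 and 2.98; of the listed genes only Cer1, at 3.57, lies higher.

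Over the wider contrast of parts 5 to 7 with parts 1 to 4 limma called 6.72% of genes as higher and 10.2% as lower. The members were higher there by 3.98 ± 0.09 (SE) for Stum, 3.61 ± 0.17 for Myocd and 2.77 ± 0.15 for Snap91, given without a test. Among the myocardin list 0 rose and 3 fell, Tpm1 (-1.13 ± 0.09, limma adjusted p = 1.28e-08), Tagln (-0.76 ± 0.22, adjusted p = 0.0227) and Mylk (-0.59 ± 0.13, adjusted p = 0.00398), all genes of the contractile apparatus. The number that fell was between 1 and 6 when a replicate number was left out, and with the block 8 fell and 1 rose. Of the cardiac list Mef2c (-0.87 ± 0.15), Myl2 (-0.58 ± 0.12) and Myl4 (-0.36 ± 0.09) fell and 0 rose, and 2 fell when any single replicate number was left out.

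The counts of the next lists are to be set beside 6.72% of all genes higher and 10.2% lower. In the endocytosis list 4 of 28 genes fell and 0 rose, a share near that background: the synaptic dynamin gene Dnm1 (-0.80 ± 0.15, limma adjusted p = 0.000516), Sh3gl3 (-0.61 ± 0.10), Hip1 (-0.33 ± 0.08) and Ston2 (-0.25 ± 0.08); without replicate 2 only 1 fell. In the neuron list 3 rose and 4 fell: the neurofilament genes Nefl (1.60 ± 0.17, adjusted p = 8.53e-07) and Nefm and the active zone gene Pclo rose, while Gap43 (-0.74 ± 0.11), Map2, Stmn3 and Stx1a fell. In the channel list Kcnk2, a stretch-gated potassium channel gene, rose (1.07 ± 0.13, adjusted p = 4.95e-06), and Piezo1 (-0.75 ± 0.10), Tmem63a and Trpc6 fell. In the somite list 14 rose and 1 fell, led by Cer1 (4.32 ± 0.24), Uncx (3.83 ± 0.19), Meox1 (3.81 ± 0.21) and Meox2 (3.56 ± 0.19), and Met (3.38 ± 0.20), Pax3 and Eya1 of the myogenic list rose. In the posterior list 15 of 20 fell, by most in Rspo3 (-2.90 ± 0.13), Cdx4 (-2.80 ± 0.22), Tbx6 (-2.78 ± 0.14) and Hes7 (-2.28 ± 0.24).

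Markers of the cell types in which Snap91 and Myocd are best known varied between genes. The summed signal of 26 neuron genes was 519 to 753 in parts 1 to 4 and 482 to 777 in parts 5 to 7, and 4 of them stayed below the table median in every array. Snap25 did not exceed 8.34, Syt1 14.3 and Tubb3 7.33 in parts 5 to 7. Others of the list were higher: Nefl was at 0.413 to 15.1 in parts 1 to 4 and 12.9 to 160 in parts 5 to 7, Nefm at 2.98 to 9.85 and 6.59 to 21.4, Cplx2 at 38.7 to 94.5 and 62.8 to 106, and Rab3a at 82.6 to 175 and 79.1 to 172. The part of neuronal RNA in the Snap91 values was not tested. The sum over 22 cardiac genes was 255 to 709 and then 353 to 552, with 9 below the table median throughout; Myl7 did not exceed 3.63 and Tnnt2 12.6 in parts 5 to 7, while Tnni1 was at 20.6 to 69 in parts 1 to 4 and 22.4 to 117 in parts 5 to 7. The sum over 25 myocardin cofactors and smooth muscle targets was 5497 to 7054 and then 4215 to 6168, with 5 below the table median throughout. Of these, Myh11 did not exceed 6.57 and Cnn1 8.9 in parts 5 to 7, while Acta2, which early mesoderm also expresses, was at 252 to 437. Others of this list were bright in those parts too, such as Cald1 at 1260 to 2200, Vcl at 788 to 1550 and Tpm1 at 398 to 536.

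Among the lists of other tissues, that of the neural tube held a gene called at the step. Of 8 measured genes 1, the motor neuron progenitor gene Olig2, rose and 7 did not pass (3 of the 8 higher at an unadjusted p under 0.05); the change was 1.05 ± 0.20 (SE, limma adjusted p = 0.0197). Its signal did not exceed 32.4, and the call was lost when any single array of parts 4 and 5 was left out (adjusted p = 0.0555 to 0.114). The summed signal of 12 such genes was 1023 to 1785 in parts 1 to 4 and 1226 to 1928 in parts 5 to 7. Sox1 was at 0.175 to 10.2 and Pax6 at 1.44 to 18.3 in parts 5 to 7, where Sox2 reached 67 and Hes5 655 (70.4 and 217 at most in parts 1 to 4). The adhesion gene Ncam1 was at 438 to 670 in parts 1 to 4 and 726 to 1180 in parts 5 to 7 and rose over that contrast (0.87 ± 0.07, SE; limma adjusted p = 1.148e-08), as Olig2 did, while Fabp7 fell (223 to 1170, then 29.8 to 410). The neural tube was dissected from the same embryos, by the protocol, and its part in the values of Stum, Snap91 and Myocd was not tested. In the neural crest, endothelium, blood, notochord, gut endoderm, surface ectoderm and lateral mesoderm lists 0 genes were called at the step, with 0 to 2 lower and 0 higher in each at an unadjusted p under 0.05; with 1 to 11 genes tested in each and 0.264% and 0.0577% of all genes called higher and lower, 0 is the background. Over parts 5 to 7 against parts 1 to 4, limma called 6.72% of all genes higher and 10.2% lower. The myocardin list had 3 of 19 genes called lower there and the cardiac list 3 of 11. In the same contrast 4 of 11 endothelium genes fell (list median -0.75) and 2 of 8 blood genes (-0.65). So did 1 of 7 gut endoderm genes and 1 of 4 surface ectoderm genes. Of 6 lateral mesoderm genes 1 rose and 1 fell, while of the crest and notochord lists 0 were called. The part of these tissues in the changes of the other lists was not tested. The endothelium sum was 121 to 1417 in parts 1 to 4 and 98 to 438 in parts 5 to 7. The sum over 9 blood genes was 8328 to 19296 and then 6585 to 12457. In it the globin gene Hbb-y was at 5730 to 6740 and then 4780 to 6890.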

How the data were processed

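Per the labels, total RNA of 7 PSM parts in 3 arrays each was amplified in 2 cycles, labelled with biotin and hybridised to single-colour Affymetrix arrays. The deposited table holds linear MAS5 intensity values, per the submitters' processing notes; which release of MAS5 and which target level were used is not given in the sources used here. The number of arrays limits the precision.

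Of 45101 probe sets, 64 controls, 9160 with no symbol and 932 with several were left out, and 34945 had 1 symbol in GEO's platform annotation, giving 18193 genes, each by its highest-mean probe set. Genes with a value of at least 13.3, the table median, in at least 3 arrays were kept (12141). Limma 3.58.1 in R 4.3.3 was fitted to log2(value + 16) with 1 mean per part over 21 arrays, with a mean-variance trend and Benjamini-Hochberg adjustment at 0.05. Pandas 2.3.3 and matplotlib 3.10.9 were used for tables and plots. Tested on simulated data (12141 genes), the comparison of parts 5 and 4 recovered 73.8% of changes of 1 log2 unit and 98.2% of those of 2, with 4.44% false calls. The simulated noise was independent between arrays. Same-numbered real arrays deviated together (median r = 0.3 over all pairs of parts), so these rates need not hold for the data.

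The members and gene lists were chosen with earlier results of these data known. Genes named were the members, list genes called at the step, up to 4 others per list by size over parts 5 to 7, and the 5 genes most like each member; others were chosen after their values were seen. Same-numbered arrays deviated together (r = 0.198 to 0.572 for parts 4 and 5, 0.326 to 0.559 for parts 6 and 7, 0.236 to 0.525 for parts 1 and 3), which meets the bar for pairing; the labels do not say what a number marks. The p-values given are from the fit without a block. Blocked values are given for some results only, and other p-values may change with the block too. Alternatives were the pseudocount, filter, scaling, variance trend, array weights, probe set rule, replicate block, fitting only the parts compared, and leaving arrays out.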

Additional observations from a re-analysis of the deposited data

How the results depend on the processing

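The step of Stum, Snap91 and Myocd kept its direction under all alternatives run. With pseudocounts of 1 and 64 it was 3.46 and 1.56 for Stum, 3.65 and 1.87 for Snap91, and 3.77 and 1.95 for Myocd; averaging probe sets gave 1.69 for Snap91 and 1.73 for Myocd. Genes called from part 4 to 5 (39) numbered 68 with array weights, 105 with a fixed and 96 with a random replicate block, 15 with only the parts compared, and 5 to 54 with arrays left out. From part 1 to 3 (429) they numbered 932 with weights, 1132 and 918 with the fixed and random block, 205 with only those parts, and 70 to 365 with replicates left out. For parts 5 to 7 (2058) they numbered 3056 and 2843 with the fixed and random block. Leaving out replicates gave 1128 to 1980 there, and for part 7 against 6 (0) 0 to 62. The fixed replicate block lost no called gene in the first 3 of these comparisons. Stum from part 6 to 7 was -0.18 to 0.0082 with arrays left out, reversing without replicate 3 (limma adjusted p = 0.9997). The second Myocd probe set gave -0.0069 from part 1 to 3, against 0.28. The causes were not tested. Signals under the table median limit the folds of Stum and Myocd.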

Other observations

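Other genes that rose with Stum, Snap91 and Myocd from part 4 to part 5, picked after their values were seen, were the zinc finger genes Zic5 (2.43 log2 units) and Zic2 (1.13 ± 0.22, SE; limma adjusted p = 0.0238), the transcription factor gene Ebf1 (1.63 ± 0.23, adjusted p = 0.00131), the acetylcholine receptor subunit gene Chrna3 (1.60 ± 0.21, adjusted p = 0.000696) and Wnt16 (1.46 ± 0.25, adjusted p = 0.00871). Among those that fell, picked in the same way, were S1pr5 (-2.05), Gad1 (-1.91), which makes GABA, Rhpn2 (-1.52) and Pmp22 (-1.08). Calls at this step were fragile. Without replicate 1, 2 or 3, limma called 0, 1 and 1 genes lower in place of 7, and 5, 11 and 15 higher in place of 32. With only the parts compared, 0 were called lower and 15 higher.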
